A study of Mus musculus with 55 samples.

Results

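Zfas1, Gas5, Snhg1, Snhg3, Snhg5, Snhg6, Snhg8, Snhg12 and Epb41l4aos are RNA genes with snoRNA genes in their introns. These 9 genes, of 55487 Ensembl genes counted, were matched by gene symbol. The set was selected on a measured value, the lower Zfas1 level of Cnih3 KO mice in these same libraries, so every difference of these genes between KO and WT mice is given as a description with no test. The data are gene-level RNA-seq counts of the dorsal hippocampus of 55 mice, 1 library per mouse, on a C57BL/6J background. WT mice were males (n = 5) and females staged by vaginal cytology as metestrus (n = 4), diestrus (n = 6), proestrus (n = 5) or estrus (n = 7). KO mice, which lack exon 4 of the AMPA receptor auxiliary subunit gene Cnih3, were 7 males and 5 metestrus, 6 diestrus, 4 proestrus and 6 estrus females. Ages ran from 10.86 to 23.71 weeks, and 7 of the 12 diestrus mice were under 14 weeks old, against 10 of the other 43 mice. By the study's sample records all KO mice came from Cnih3 matings, whereas WT mice came either from Cnih3 x B6 or from B6 x B6 parents, so breeding and genotype are partly confounded.

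A snoRNA host gene is transcribed, spliced, and then divided: the introns are trimmed to small nucleolar RNAs, which guide 2′-O-methylation (box C/D class) or pseudouridylation (box H/ACA class) of ribosomal RNA, while the spliced exons form a long non-coding RNA. Many of these spliced RNAs are short-lived because ribosomes that engage them send them to nonsense-mediated decay. Several hosts, Gas5 among them, begin like ribosomal protein mRNAs with a run of pyrimidines (a 5′ terminal oligopyrimidine, or TOP, sequence), through which mTOR and Larp1 adjust translation to growth conditions.

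Zfas1 (ENSMUSG00000074578) lies at chr2:167062934-167065862 on the plus strand of GRCm38, head to head with Znfx1, and its name stands for the antisense RNA of that gene. It holds 3 box C/D snoRNA genes. They are shown because they are what the gene encodes besides its spliced RNA; capitals mark the C box (RTGATGA, with R either purine) where an exact match lay near the 5′ end, and the last D box (CTGA).
Gm25878, chr2:167063473-167063565: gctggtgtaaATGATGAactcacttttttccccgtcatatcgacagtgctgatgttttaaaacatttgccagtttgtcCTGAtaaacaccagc
Gm23201, chr2:167064998-167065086: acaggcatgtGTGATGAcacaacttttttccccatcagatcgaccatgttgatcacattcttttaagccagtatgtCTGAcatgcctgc
Snord12, chr2:167065276-167065365: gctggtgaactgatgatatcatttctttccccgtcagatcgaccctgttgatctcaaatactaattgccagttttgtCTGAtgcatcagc
The 3 sequences are alike. Gm25878 and Snord12 were 75.8% identical over their alignment, Gm23201 and Snord12 69.5%, and Gm25878 and Gm23201 64.6%. Snord12 had no exact C box match.

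The other hosts carry different cargo. Gas5 (growth arrest-specific 5, an RNA known to bind the glucocorticoid receptor) spans 10 annotated snoRNA genes at chr1:161034422-161038539, and Snhg1 spans 8 at chr19:8723475-8726443. Snhg12 holds 5, among them Snora44, Snora61 and Snord99. Snhg5 holds Snord50a and Snord50b, Snhg3 holds Snora73a and Snora73b, Snhg6 holds Snord87, Snhg8 holds Snora24, and Epb41l4aos, which lies beside the gene of the cytoskeletal protein Epb41l4a, holds Gm23639. The counts cover all annotated exons of a host, in some hosts the whole gene, so spliced and unspliced host RNA are not separated. The snoRNAs themselves were hardly counted. Of the 33 annotated snoRNA gene entries inside the members, 3 had a count in any library, with at most 18 reads, and none passed the filter on low counts. These entries are not all distinct genes. Snord80 in Gas5 and Snora16a in Snhg12 have overlapping entries at the same place, and an entry in Gas5 is named Mir5117. By the study's methods, reads that matched both a host exon and a snoRNA gene were counted for neither.

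The starts of the members are shown next, since the levels of these genes are compared below with those of ribosomal protein genes. RefSeq gave 8 starts for 7 members, of which 6 are shown. Each line gives the 50 bases before a RefSeq start (GRCm38.p6) and the 30 bases from it. Capitals mark the longest pyrimidine run of at least 6 bases (C or T) within 20 bases of the start. They also mark any TATAA in the 50 bases before the start.
Zfas1, chr2:167062884-167062963, plus strand: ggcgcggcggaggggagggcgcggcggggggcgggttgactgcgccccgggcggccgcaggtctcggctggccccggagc
Gas5, second start, chr1:161035116-161035195, plus strand: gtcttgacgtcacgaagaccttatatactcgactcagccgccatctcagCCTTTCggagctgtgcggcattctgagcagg
Snhg8, chr3:123508307-123508386, minus strand: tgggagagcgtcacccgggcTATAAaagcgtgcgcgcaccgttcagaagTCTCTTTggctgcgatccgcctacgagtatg
Snhg12, chr4:132308628-132308707, plus strand: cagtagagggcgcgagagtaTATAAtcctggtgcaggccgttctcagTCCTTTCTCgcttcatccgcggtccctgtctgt
Snhg5, chr9:88522868-88522947, minus strand: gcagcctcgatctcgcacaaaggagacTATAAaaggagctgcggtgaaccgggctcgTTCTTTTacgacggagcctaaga
Snhg1, chr19:8723437-8723516, plus strand: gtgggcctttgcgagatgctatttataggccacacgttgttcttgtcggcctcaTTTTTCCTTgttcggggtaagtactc
Such a run was present at 5 of the 8 starts (62.5%), at 63.6% of 66 ribosomal protein starts and at 37.5% of all 32851 RefSeq starts. TATAA was present at 3 of the 8 starts (37.5%), against 6.06% of ribosomal protein starts and 4.93% of all starts. The run length was set after the sequences had been seen, and these shares are descriptions of the letters. The window of Zfas1 held neither pattern, and neither did those at the first start of Gas5 and at the start of Snhg3, which are not printed.

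Read totals per library ran from 25881295 to 63547098 (median 53384170), and levels are given in CPM, the share of a library's reads on a gene after TMM scaling between libraries. Of the 9 members, 8 exceeded 1 CPM in all 55 libraries and were tested among 16168 genes, and Snhg3 exceeded it in none. Markers of hippocampal neurons (Snap25, Slc17a7, Camk2a, Rbfox3, Neurod6, Wfs1) summed to between 6480 and 11500 CPM in every library. Cnih3 itself gave 818 to 3234 reads in WT and 1024 to 2690 in KO libraries, and was at -0.34 in KO minus WT mice on the log2 scale (SE 0.079, FDR = 0.00692); gene counts include the exons outside the deletion, so this does not check the genotype. A library of WT proestrus (replicate 5) stood apart: it was among the 5 highest of all 55 libraries for 7 of the 8 tested members. A KO male (replicate 6) was among the 5 highest for 7 members too, and a KO proestrus mouse (replicate 4) for 6. The fit weights libraries by quality, and the first 2 of these libraries received the lowest weights, 0.194 and 0.28. In WT proestrus replicate 5 the haemoglobin genes summed to 607 CPM (242 to 438 in the other WT proestrus libraries), dentate granule cell markers to 271 (380 to 439) and hippocampal neuron markers to 6480 (7450 to 9970). Its RNA integrity number was the lowest of the 55 libraries in the study's sample records. The part of these in its member levels was not tested.

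Per kilobase of annotated exon the members covered a wide range of levels. Gas5 was highest, at 86.1 ± 19 CPM per kb (SD, n = 55 libraries). Snhg8 followed at 51.7 ± 12.4, Snhg6 at 33.4 ± 6.12 and Zfas1 at 17.7 ± 5.67 CPM per kb. This order down to Zfas1 held in each of the 55 libraries, but it depends on the exon lengths used. These join the exons of all annotated transcripts, and for Zfas1, Snhg8, Snhg12 and Snhg1 they cover the whole gene. In CPM without division by length, Zfas1 averaged 51.9, above Snhg8 (44.1) and Snhg6 (38.2). Epb41l4aos (14.6 ± 3.37), Snhg5 (14.0 ± 1.99) and Snhg12 (13.8 ± 2.99 CPM per kb) lay within each other's spread, and Zfas1 exceeded Epb41l4aos in 39 of 55 libraries. Snhg1 was at 4.79 ± 0.913 CPM per kb. Snhg3 was barely detected, with 0 to 28 reads in WT libraries (median 14) and 0 to 24 in KO libraries (median 12), so it has no further values. Its exons share 135 bases with Rcc1 on the same strand, which produces the chromatin-bound nucleotide exchange factor of Ran, and 705 bases with Gm17300 on the other.

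Zfas1 was lower in KO than in WT mice, the value that chose the set. In WT males its levels were 46.7, 51.9, 64.4, 65.2 and 75.5 CPM. In KO males they ran from 31.6 to 63.6 with a median of 45.6 CPM. These ranges overlapped, and the difference on the log2 scale was -0.66 (SE 0.15).

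In metestrus the genotypes did not overlap for Zfas1: WT levels were 42.2, 57.2, 57.3 and 67.5 CPM, and KO levels 32.9, 35.1, 36.8, 37.9 and 41.8 CPM (log2 difference -0.61, SE 0.15). Of all tested genes, 2.11% had WT and KO libraries that did not overlap in metestrus. In diestrus WT levels ran from 44.2 to 81.0 CPM and KO levels from 34.3 to 51.6 CPM, with a log2 difference of -0.51 (SE 0.15), and these ranges overlapped. Estrus had the widest gap, with 7 WT libraries from 51.3 to 92.2 CPM (median 62.0) above 6 KO libraries from 26.3 to 45.6 CPM (median 35.9). The log2 difference there was -0.76 (SE 0.13), a level 41.0% lower. In estrus 0.495% of all tested genes had no overlap between genotypes, and Gas5 was the only other member of that kind.

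Proestrus was the group with the smallest difference. Zfas1 measured 47.5, 48.8, 49.3, 52.2 and 120.4 CPM in WT mice and 41.6, 42.8, 50.4 and 58.4 CPM in KO mice. The high value belonged to replicate 5, and without it the remaining WT libraries lay inside the KO range. The log2 difference was -0.18 (SE 0.16) with that library and -0.14 without it. Left at full weight, in a fit without quality weights, it moved the difference to -0.31. Over all 5 groups the difference was -0.55 (SE 0.066), a level 31.5% lower, or -0.54 without that library, and over the 4 stages -0.52 (SE 0.073). Of the 28 KO libraries 15 lay below the lowest WT library, and 11 of the 27 WT libraries lay above the highest KO library.

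**Figure D1:**
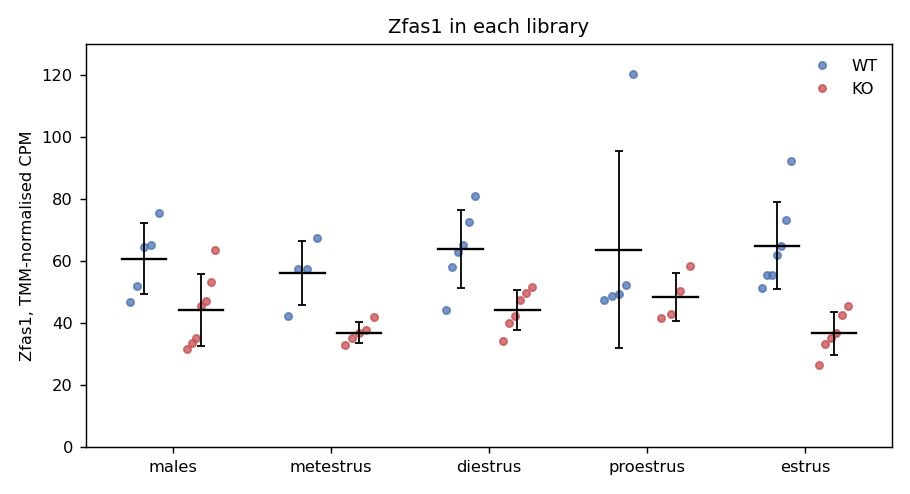
Zfas1 level of each library in TMM-normalised CPM (vertical axis) for WT and KO mice of each group. Points are mice, horizontal lines are group means and bars are 1 SD; KO points lie below all WT points in metestrus and estrus, and 1 WT proestrus library is at 120.4 CPM.

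The other members were lower in KO mice by less, or not lower. Over all 5 groups Gas5 differed by -0.21 (SE 0.058) and Snhg1 by -0.24 (SE 0.057) on the log2 scale. Gas5 averaged 348 ± 76.4 CPM in 27 WT and 301 ± 59.2 CPM in 28 KO mice, and Snhg1 15.3 ± 2.28 and 13.2 ± 2.7 CPM (SD), so the genotypes overlapped widely. Snhg6 (-0.06, SE 0.051), Snhg8 (-0.10, SE 0.065), Snhg12 (-0.09, SE 0.063) and Epb41l4aos (-0.13, SE 0.076) had log2 differences closer to 0. Snhg5 was the exception in sign, at 0.10 (SE 0.046). Without WT proestrus replicate 5 Gas5 was at -0.21, Snhg1 at -0.24 and Snhg5 at 0.10. Among all 16168 genes, for scale, the share under an FDR of 0.05 between genotypes was 3.4% over all 5 groups, 1.97% over the 4 stages, 0.315% in proestrus, 0.179% in estrus, 0.0247% in metestrus, 0.00619% in males and 0% in diestrus (limma, with an unadjusted p under 0.05 for 1321 genes; edgeR called 1 gene and DESeq2 3). Since these contrasts chose the set, no such call is given for its members.

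Fitted differences had mostly positive signs in proestrus and mostly negative signs in the other groups. All 8 members had negative log2 differences in diestrus and in estrus, though Snhg5 in estrus was only at -0.006 (SE 0.089). Negative signs held for 7 of 8 in males and in metestrus. In proestrus 7 of 8 were positive, from 0.04 for Snhg1 to 0.38 (SE 0.16) for Snhg8, with Snhg5 at 0.37 (SE 0.11). In males the signs depended on the library weights: in unweighted means KO males lay above WT males for Snhg5 (27.7 and 24.6 CPM), Snhg8 (44.96 and 44.7), Snhg12 (34.4 and 32.2) and Epb41l4aos (6.67 and 6.35), and the unweighted mean of the 7 other members differed by 0.02 on the log2 scale. Without the WT proestrus library that stood apart, Snhg8 was at 0.43 and Snhg5 at 0.38. The median over the members was 0.23 in proestrus and -0.28 in estrus, while the median over all tested genes was 0.00 and 0.01. Members were correlated within groups (median r 0.76), so their signs are not independent. In proestrus 4 of 4 KO and 1 of 5 WT mice had Cnih3 x B6 parents, and 3 and 2 were under 14 weeks old. Between genotypes in proestrus 51 genes were called, 2294 with an RNA integrity term and 0 with a breeding term. The part of these in the signs was not tested.

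**Figure D2:**
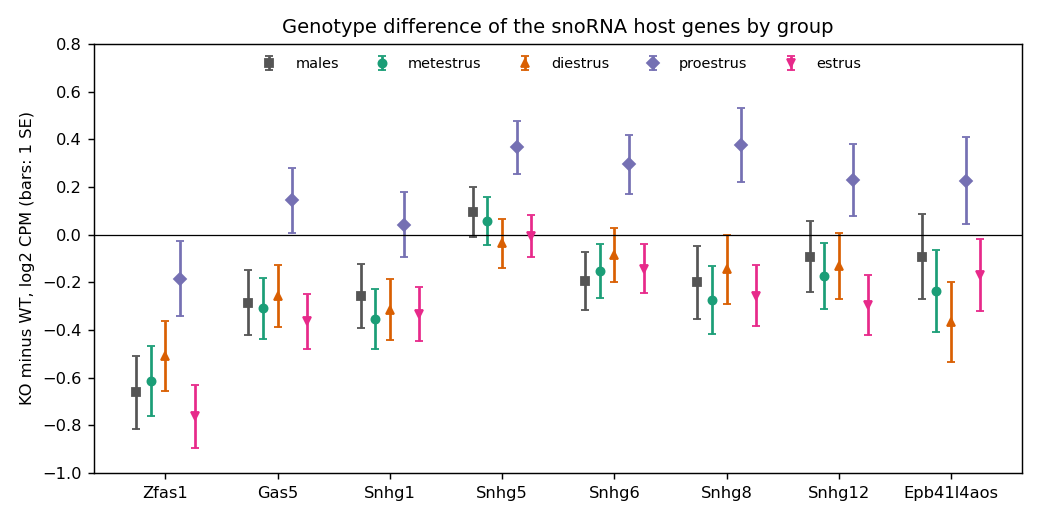
Log2 difference between KO and WT mice (vertical axis, log2 CPM) for the 8 tested snoRNA host genes, with 1 symbol per group and bars of 1 SE. Zfas1 is lowest in every group, at -0.76 in estrus and -0.18 in proestrus, and the proestrus symbols of the other members lie above 0.

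Members of a library moved together, so Zfas1 was also set against the other hosts of the same library. The log2 CPM of Zfas1 minus the mean log2 CPM of the 7 other tested members ranged from 0.63 to 1.27 in WT libraries (mean 0.88, SD 0.14, n = 27). In KO libraries it ranged from 0.04 to 0.58 (mean 0.40, SD 0.13, n = 28). On this scale no KO library reached the lowest WT library. The difference was -0.58 in estrus, -0.49 in proestrus and in males, -0.40 in metestrus and -0.37 in diestrus. On this scale the proestrus difference lay within the range of the other groups. These are differences of unweighted means, in which WT proestrus replicate 5 (1.22) counts in full. Its group's other libraries ran from 0.79 to 0.84, and the KO proestrus libraries from 0.36 to 0.43. Unweighted, Zfas1 alone averaged 5.88 in WT and 5.58 log2 CPM in KO proestrus. The weights thus also separate this -0.49 from the fitted -0.18 of Zfas1 alone. Among the 16161 genes that are not 1 of these 7, the same subtraction left 0.00619% with no overlap between genotypes, which is Zfas1 itself. This share is no test, because the lower Zfas1 level chose the set. With group means removed Zfas1 also followed the mean of these 7 with r = 0.918, so the subtraction narrows its spread. The median r of all tested genes with Zfas1 was -0.06. The mean of the 7 others differed between genotypes by -0.08 over the groups, with values from -0.24 in estrus to 0.19 in proestrus. The SD of single libraries within groups was 0.24.

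Against Gas5 alone, Zfas1 stood at 17.8% of the Gas5 CPM in WT mice (geometric mean, range 15.4 to 21.7%) and at 13.9% in KO mice (10.8 to 15.7%). On this ratio 2 WT and 2 KO libraries fell in the shared range.

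**Figure D3:**
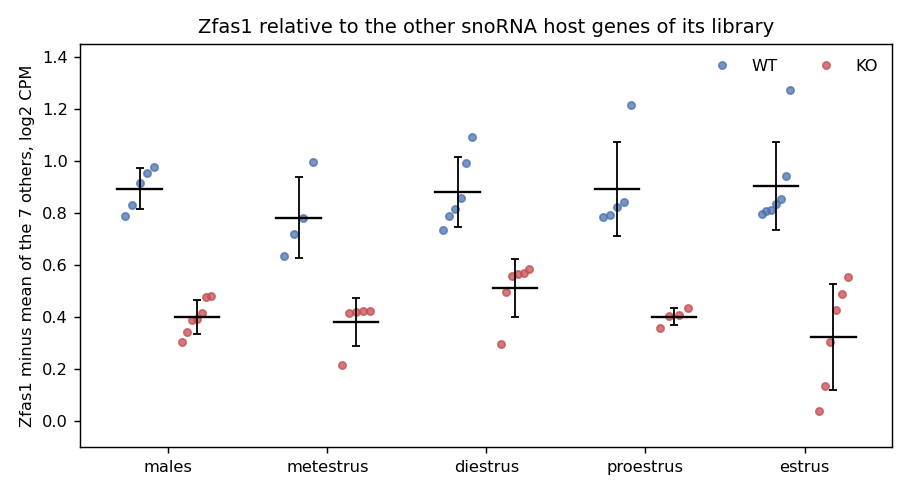
Zfas1 relative to the 7 other tested snoRNA host genes of the same library (vertical axis, difference of log2 CPM) in WT and KO mice of each group. Points are mice, lines are means and bars 1 SD; all 27 WT points lie at or above 0.63 and all 28 KO points at or below 0.58.

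Neither tested gene beside Zfas1 passed the test between genotypes over all 5 groups, where 3.4% of 16168 genes did. Znfx1, an NFX1-type zinc finger protein gene that shares 82 exonic bases with Zfas1 on the opposite strand, differed by -0.01 (SE 0.042, FDR = 0.954), and Ddx27, an RNA helicase gene upstream, by 0.05 (SE 0.040, FDR = 0.620). Of the 12 tested neighbours 1 passed the test: Epb41l4a, 341 bases from Epb41l4aos, was higher in KO mice by 0.38 (SE 0.113, FDR = 0.0420). That call held under 1 of 10 alternative settings, and its FDR was 0.0532 without WT proestrus replicate 5. Gas5 and Snhg6 share chromosome 1 with Cnih3, at distances of 20.31 and 171.41 Mb. By the study's methods reads that matched more than 1 gene were not counted. The Zfas1 count therefore lacks reads from the 189 bases it shares with Gm27494 on its own strand. It also lacks reads from the exonic bases that its snoRNA genes overlap. Whether counting used strand is not given in the sources used here, and without strand the reads from the bases shared with Znfx1 would be lacking too.

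Across the estrous cycle 1 member passed the test for a difference between stages. In the moderated F test among the 4 stages, over both genotypes, Snhg6 passed (FDR = 0.0168), Snhg12 (0.0507), Gas5 (0.0668) and Zfas1 (0.126) did not, and the remaining FDR values were 0.286 or more. That is 1 of 8 members (12.5%), where 53% of all tested genes passed.

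**Figure D4:**
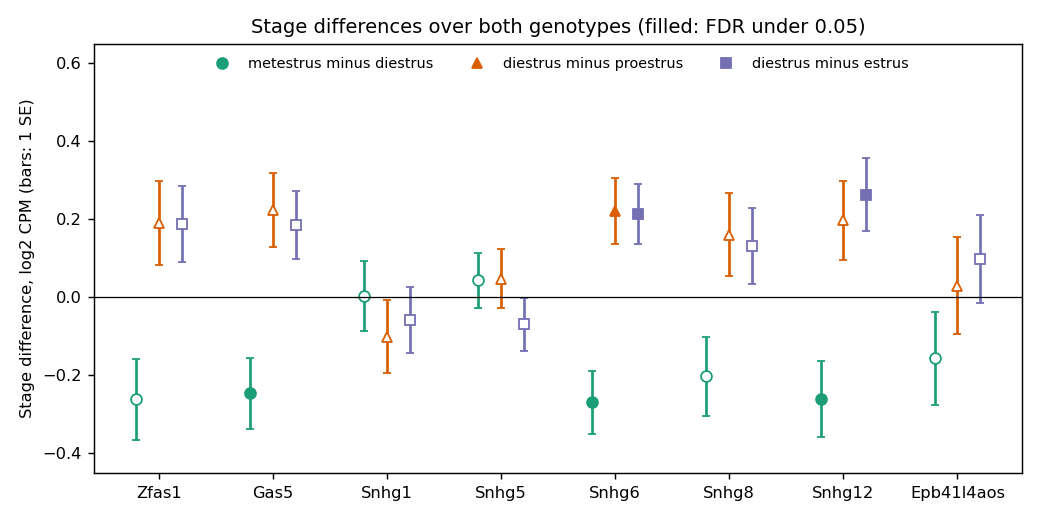
Log2 differences between stages over both genotypes (vertical axis, log2 CPM) for the 8 tested members, with bars of 1 SE and filled symbols for an FDR under 0.05. Snhg6 is filled in all 3 comparisons, at -0.27, 0.22 and 0.21, and Snhg1 and Snhg5 lie near 0.

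Over both genotypes fitted levels were higher in diestrus than in each other stage for Zfas1, Gas5, Snhg6, Snhg8, Snhg12 and Epb41l4aos. Only Snhg6 passed all 3 of these comparisons. Snhg6 levels in WT diestrus ran from 30.5 to 48.7 CPM (median 45.3), and in KO diestrus from 33.1 to 44.96 CPM (median 40.5). In metestrus the 4 WT libraries were at 33.5, 36.5, 38.3 and 38.8 CPM, and the 5 KO libraries at 29.7, 33.3, 34.3, 35.2 and 36.4 CPM. The stages overlapped in both genotypes. Over both genotypes Snhg6 was lower in metestrus than in diestrus by 0.27 on the log2 scale (log2 difference -0.27, SE 0.080, FDR = 0.0106), Gas5 by 0.25 (-0.25, SE 0.092, FDR = 0.0383) and Snhg12 by 0.26 (-0.26, SE 0.098, FDR = 0.0401). Zfas1 was at -0.26 (SE 0.10, FDR = 0.0513). These 3 of 8 members compare with 28.2% of all genes. In diestrus minus proestrus Snhg6 passed (0.22, SE 0.084, FDR = 0.0307), 1 of 8 against 41.1% of genes. Gas5 (FDR = 0.0528) and Snhg12 (FDR = 0.115) did not pass there. Unweighted means of these stages were close, with 40.8 CPM in diestrus and 40.6 CPM in proestrus for Snhg6, 342 and 345 CPM for Gas5, and 34.95 and 35.7 CPM for Snhg12. Within KO mice Snhg6 averaged 39.7 CPM in diestrus and 44.0 CPM in proestrus, and its fitted difference was 0.03 (SE 0.11, FDR = 0.861). In diestrus minus estrus Snhg6 (0.21, SE 0.076, FDR = 0.0184) and Snhg12 (0.26, SE 0.093, FDR = 0.0178) passed, 2 of 8 against 47.8%. No member passed in metestrus minus proestrus (3.9% of genes), metestrus minus estrus (0%, limma, with 1751 genes at an unadjusted p under 0.05) or proestrus minus estrus (8.62%).

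These stage calls rested on 3 WT diestrus mice of 11.71 and 12.29 weeks (replicates 3, 4 and 5), which had the highest Snhg6, Gas5 and Zfas1 levels of their group. Leaving out any 1 of them left 0 members called in the F test and in all 3 diestrus comparisons. Over all 16168 genes the F test then called 6071 to 6162, against 8577 with all libraries. Metestrus minus diestrus called 1068 to 1155 genes, against 4555. Diestrus minus proestrus called 4709 to 4765, against 6647, and diestrus minus estrus 5237 to 5351, against 7726. Among the members, diestrus minus proestrus also fell to 0 without KO diestrus replicate 2, KO proestrus replicate 1 or 2, or WT proestrus replicate 3. Without WT proestrus replicate 5 the counts were 3 in the F test and 4, 2 and 2 in metestrus minus diestrus, diestrus minus proestrus and diestrus minus estrus. The F test called Snhg6 under 2 of 10 alternative settings and not under the other 8, among which its FDR was 0.264 by edgeR, 0.226 by DESeq2, 0.0638 with age as a covariate and 0.975 in mice of 14 weeks or more. Age and stage cannot be told apart for the younger diestrus mice. The 3 WT diestrus mice named above also had Cnih3 x B6 parents. Among WT females 4 of 6 diestrus mice had such parents. The shares were 1 of 4 in metestrus, 1 of 5 in proestrus and 1 of 7 in estrus. Breeding and stage are thus partly confounded in WT mice.

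Within WT mice Gas5 (0.42, SE 0.14, FDR = 0.0459) and Snhg6 (0.41, SE 0.13, FDR = 0.0323) were higher in diestrus than in proestrus (9.66% of genes passed), and Snhg5 was lower in proestrus than in estrus (-0.30, SE 0.099, FDR = 0.0490; 6.82%). None passed in the other WT pairs, where 7.24% (metestrus minus diestrus), 0.767% (metestrus minus proestrus), 0% (metestrus minus estrus) and 22.1% (diestrus minus estrus) of genes did. Within KO mice Snhg12 was higher in diestrus than in estrus (0.34, SE 0.13, FDR = 0.0390; 30.7% of genes). These 4 calls were marginal: of 10 alternative settings Gas5 and Snhg6 held under 1 each, and Snhg5 and Snhg12 under 3 each. With each of the 55 libraries left out in turn, Gas5 passed in 35 of the 55 fits, Snhg6 in 50, Snhg5 in 23 and Snhg12 in 48. Gas5 and Snhg6 both failed without WT diestrus replicate 3, 4 or 5. In those fits 0 of 16168 genes passed in WT diestrus minus proestrus. The highest FDR values were 0.393 for Gas5, 0.344 for Snhg6, 0.223 for Snhg5 and 0.102 for Snhg12. Without WT proestrus replicate 5 the values were 0.47 for Gas5 (FDR = 0.0249), 0.43 for Snhg6 (FDR = 0.0234) and -0.32 for Snhg5 (FDR = 0.0394). None passed in the other KO pairs, with 10.4% (metestrus minus diestrus), 4.37% (metestrus minus proestrus), 0% (metestrus minus estrus), 34.3% (diestrus minus proestrus) and 0.507% (proestrus minus estrus) of genes.

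No member passed the test between females and males: over both genotypes 0 of 8 had an FDR under 0.05 in limma, where 0.952% of genes did, and likewise in WT (0.0309%) and in KO mice (5.93%). The lowest FDR was that of Snhg5 (-0.13, SE 0.059, FDR = 0.268), the only 1 of the 8 with an unadjusted p under 0.05, and 0 members passed with edgeR and DESeq2. The other 7 differences lay between -0.02 and 0.08. Parental breeding, added as a term to the same fit, gave lower levels in WT mice of B6 x B6 parents for all 8 members, from -0.13 for Snhg5 to -0.39 (SE 0.15, FDR = 0.675) for Epb41l4aos. None of these passed, and 0.00619% of genes did. Gas5 (-0.26), Snhg6 (-0.22), Snhg12 (-0.26) and Epb41l4aos were the 4 with an unadjusted p under 0.05.

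Variation between mice of a group was shared by the members. With group means removed, Pearson's r between pairs of members over the 55 libraries ranged from 0.52 to 0.95 with a median of 0.76 over 28 pairs, while the median over pairs of 2021 genes, evenly drawn from the tested genes, was -0.0031. Zfas1 was closest to Gas5 (r = 0.925), Snhg12 (0.91) and Snhg8 (0.90), then to Snhg6 (0.82), Snhg1 (0.78) and Epb41l4aos (0.72), and least close to Snhg5 (0.64). All values of a library share its depth and RNA, and these correlations are descriptions.

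The genes outside the set whose levels followed Zfas1 most closely were 2410006H16Rik (r = 0.92), itself a non-coding RNA gene with a snoRNA gene inside, and 9 ribosomal protein genes: Rps27 (0.905), Rpl37a, Rpl32, Rps21, Rpl36, Rps23, Rpl37, Rpl30 and Rps14 (0.88). Of the 60 genes with r above 0.85, 34 encode ribosomal proteins. The mean log2 CPM of 76 ribosomal protein genes followed the mean of the 7 other members with r = 0.944 (Spearman's rho 0.934) and Zfas1 with r = 0.852 (rho 0.836). Without the 2 libraries farthest out, WT proestrus replicate 5 and KO male replicate 6, these values were 0.917 and 0.787. They were 0.886 in WT and 0.799 in KO mice for Zfas1. Snhg6 (0.932) and Snhg8 (0.927) followed the ribosomal protein mean most closely and Snhg5 least (0.629). Zfas1 minus the 7 others followed it with r = 0.311, or 0.196 without the 2 libraries, and with 0.499 in WT and 0.0296 in KO mice.

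**Figure D5:**
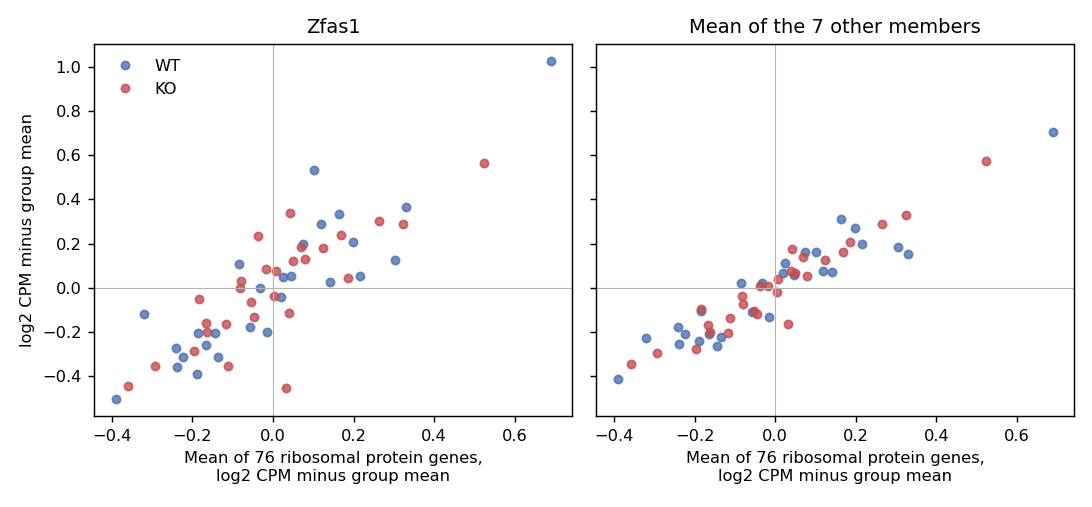
Zfas1 (left) and the mean of the 7 other tested members (right) against the mean of 76 ribosomal protein genes, all as log2 CPM minus the mean of the mouse's group; each point is 1 of 55 libraries. Pearson's r is 0.852 on the left and 0.944 on the right, and the point farthest to the right in both is WT proestrus replicate 5.

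Transcript length moved with this pattern. The median r with Zfas1 was 0.38 among the fifth of tested genes with the shortest annotated exons (56 to 1890 bases), and -0.23 among the longest (7244 bases or more). Summed cell type markers moved with it to differing degrees, with their part not tested. The 3 haemoglobin genes had r = 0.595 with Zfas1 (136 to 1030 CPM in WT and 140 to 463 in KO libraries). The 4 dentate granule cell markers had r = -0.541 (200 to 461 and 219 to 503 CPM), the 4 microglia markers -0.47 (75.1 to 142 and 79.4 to 143 CPM) and the 7 oligodendrocyte markers -0.392 (3150 to 6840 and 3030 to 6340 CPM). The other lists lay between -0.252 for hippocampal neurons and 0.226 for endothelium, including choroid plexus (0.125), pituitary (0.108), thalamus (-0.21), astrocytes (-0.127), interneurons (0.139) and oligodendrocyte precursors (-0.134). No marker was at 0 in all libraries. In whole tissue, fewer cells of a type and less RNA per cell cannot be told apart.

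Other genes of the pathway were described from fixed lists, each against the same background of all genes. Among 11 further non-coding hosts (Snhg genes and Rian), 0 passed between KO and WT mice over all 5 groups in limma, against 3.4% of genes, with a median log2 difference of 0.01. In metestrus minus diestrus 3 of them passed, against 28.2% of genes: Snhg11, a brain-enriched non-coding RNA, was higher in metestrus by 1.47 (SE 0.23, FDR = 1.0e-05), as were Snhg20 (0.43, FDR = 0.0135) and Snhg14 (0.30, FDR = 0.00853), and none was lower. Without any 1 of WT diestrus replicates 3, 4 and 5 only Snhg11 of these 3 still passed, and with edgeR, with DESeq2 or in mice of 14 weeks or more none did. In diestrus minus proestrus 1 of the 11 was higher (Rian) and 4 were lower (Snhg11, Snhg14, Snhg15, Snhg20), against 41.1% of genes. In diestrus minus estrus 4 were lower (Snhg11, Snhg14, Snhg17, Snhg20), against 47.8%, and Rian was higher in females than in males (0.36, SE 0.068, FDR = 0.00251; 0.952% of genes). The counts of this list for the latter 3 comparisons were not recomputed under the alternatives. Of 242 other tested genes with a snoRNA gene inside on the same strand, 3 were higher and 9 lower in KO mice. Those lower included Ncl (-0.23, SE 0.031, FDR = 5.5e-07), the nucleolar protein nucleolin, and Rbmx (-0.22, SE 0.035, FDR = 5.3e-05), an RNA-binding splicing factor. Ncl was called under all 10 alternatives and Rbmx under 8 of them. The others were Eng, a transforming growth factor beta co-receptor, and 6 ribosomal protein genes.

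Of 8 core snoRNP proteins, the methyltransferase Fbl was lower in KO mice (-0.19, SE 0.050, FDR = 0.0229) and the other 7 did not pass. Fbl held under 2 of 10 alternatives. None of 10 assembly factors and none of 10 nonsense-mediated decay factors passed between genotypes. Of 9 TOP regulators, Eif4ebp1, a translation repressor that mTOR phosphorylates, was lower (-0.27, SE 0.060, FDR = 0.00437). Eif4ebp1 held under 9 of 10 alternatives, and did not pass in mice of 14 weeks or more. Among 76 ribosomal protein genes 9 were lower and none higher, where 3.4% of all genes passed, with a median log2 difference of -0.11 against 0.00 for all genes. The count of 9 was 0 with edgeR, with DESeq2, without quality weights and in mice of 14 weeks or more, and 68 with WT mice of Cnih3 x B6 parents alone, a fit with 1 WT library each in metestrus, estrus and proestrus, where it is replicate 5. With single libraries left out it ran from 1 (without KO proestrus replicate 1 or 2, or WT diestrus replicate 5) to 25 (without WT diestrus replicate 2).

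By stage, 66 of the 76 ribosomal protein genes were lower in metestrus than in diestrus (median -0.24) and 56 were higher in diestrus than in estrus (0.22). In diestrus 11 were higher and 2 lower than in proestrus. Of all genes 28.2%, 47.8% and 41.1% passed in these 3 comparisons, in either direction. The counts of 66 and 56 fell to 1 or 2 and to 10 or 11 when any 1 of the same 3 WT diestrus mice was left out, were 0 and 2 with edgeR and 0 and 5 with DESeq2, and were both 0 in mice of 14 weeks or more. The count of 11 ran from 1 without KO proestrus replicate 1 to 59 without WT diestrus replicate 1. Calls over all genes fell too, from 4555 in metestrus minus diestrus and 7726 in diestrus minus estrus. Without 1 of the 3 WT diestrus mice they were 1068 to 1155 and 5237 to 5351. With edgeR they were 13 and 2702, and with DESeq2 69 and 3090. For metestrus minus diestrus, where 28.2% of genes passed, 4 of 10 assembly factors (Ruvbl1, Znhit3, Rpap3, Nolc1) and 2 of 8 core proteins (Nhp2, Snu13) were lower. In the same comparison, 1 of 9 TOP regulators (Tia1, an RNA-binding protein, 0.55, SE 0.079, FDR = 3.7e-06) was higher, and it did not pass with edgeR or in mice of 14 weeks or more.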

How the data were processed

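Dorsal hippocampal RNA of 55 mice in 10 groups was sequenced after poly(A)-selective cDNA synthesis. The authors aligned reads with STAR 2.7.9a and deposited raw gene counts from featureCounts 2.0.3, in 55774 lines of which 287 were repeats; 1 column with no mouse in the sample list was not used. The deposited log2 CPM table of the authors served as a check, and matched the normalised values for 16164 genes to within 5e-14. Gene CPM and transcript tables were not used here.

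The members and lists were chosen with earlier results of these data known. Genes had to exceed 1 CPM in 10 or more libraries, and 5 ribosomal RNA genes were left out. After TMM scaling in edgeR 4.0.16, limma 3.58.1 (R 4.3.3) estimated 1 mean per group with voom, library quality weights and moderated variances. FDR followed Benjamini and Hochberg over 16168 genes, with a threshold of 0.05. SE is that of the moderated fit. The fit was tested on simulated data. Named genes were the members, their neighbours, the 10 genes most correlated with Zfas1, the fixed lists and Cnih3. Alternatives were edgeR and DESeq2 1.42.0, other normalisation, filter and weights, age, RNA integrity and breeding terms, subsets of mice, and each library left out; RNA integrity and breeding came from the study's supplementary sample records. Gene models and snoRNA genes are GENCODE M21 (GRCm38). The stage comparisons of the nonsense-mediated decay list are not reported here.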

Additional observations from a re-analysis of the deposited data

Results flagged for a closer look

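Each of the 8 tested members was examined in each of the 10 groups, 80 sets in all, for a highest or lowest library set far from the rest by Dixon's 95% criterion. Chance alone picks out about 1 in 20 such sets, and 7 of the 80 met the criterion. Of these, 5 belonged to WT proestrus replicate 5, where Zfas1 was at 120.4 CPM (next library 52.2), Gas5 at 595.5 (285.1), Snhg8 at 85.2 (36.3), Snhg6 at 58.8 (34.8) and Snhg12 at 58.8 CPM (31.2). The other two were low values. Snhg8 was at 34.1 CPM in WT metestrus replicate 3, below 45.4 to 47.8 CPM in the other libraries of that group, and Snhg6 was at 30.1 CPM in KO estrus replicate 6, below 35.5 to 37.0 CPM.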

How the results depend on the processing

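Zfas1 remained lower in KO mice over all 5 groups under each of 12 alternatives, with log2 differences from -0.81 (WT mice of Cnih3 x B6 parents only) to -0.36 (relative to Gas5), and from -0.57 to -0.52 with single libraries left out. Restricting WT mice to Cnih3 x B6 parents leaves 1 WT library each in metestrus, estrus and proestrus (replicate 5), whose spread is then assumed to be that of other groups; Zfas1 became -1.42 in proestrus and -0.86 over the stages, Snhg5 over all groups turned to -0.058, and within WT mice Gas5 (-0.47) and Snhg6 (-0.28) in diestrus minus proestrus and Snhg5 (0.093) in proestrus minus estrus changed sign. In mice of 14 weeks or more Zfas1 in proestrus was at 0.01, with 1 KO library left there, and Snhg11 (-0.34), Snhg14 (-0.16), Snhg20 (-0.080) and Tia1 (-0.0079) in metestrus minus diestrus changed sign. Values relative to other members, counts for single pairs of stages and alternatives for genes outside the set were added after seeing the data. Stage calls depended on the settings, over all genes as well as in the members. The main fit called 4555 of 16168 genes in metestrus minus diestrus. With edgeR it was 13 genes, with DESeq2 69, with an age term 1938 and with a breeding term 2670. In the F test the main fit called 8577 genes, edgeR 2739 and DESeq2 3695. With no filter, edgeR, DESeq2, no quality weights, an RNA integrity or breeding term, or mice of 14 weeks or more, 0 members were called in the F test and the 3 diestrus comparisons; an age term gave 0, 0, 0 and 1 (diestrus minus estrus). In the F test, metestrus minus diestrus, diestrus minus proestrus and diestrus minus estrus, DESeq2 size factors gave 3, 4, 2 and 2 members, and WT mice of Cnih3 x B6 parents 5, 2, 3 and 0. Leaving out single libraries gave 0 to 4 members in the F test, 0 to 5 in metestrus minus diestrus, 0 to 4 in diestrus minus proestrus and 0 to 4 in diestrus minus estrus. No member was called between females and males under any setting. The cause of these changes was not tested. No paired analysis was possible because replicate numbers only name mice in accession order, and litters of single mice are not given in the sources used here. The 8 members tested had 127 reads or more in every library, whereas Snhg3 had at most 28, too few to test.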
